A study of Mus musculus with 35 samples.

Results

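The feedback regulators of TGF-beta signaling described here are 8 genes, *Ski*, *Skil*, *Smurf1*, *Smurf2*, *Tgif1*, *Tgif2*, *Pmepa1* and *Bambi*, chosen by name from the 53465 genes of the count table and followed in all 35 RNA-seq libraries of the series. Each symbol matched 1 gene row. On GRCm38 the protein-coding genes lie at chr4:155154075-155222592 (*Ski*), chr3:31095058-31122577 (*Skil*), chr5:144876495-144965847 (*Smurf1*), chr11:106820066-106920715 (*Smurf2*), chr17:70844205-70853546 (*Tgif1*), chr2:156840007-156855570 (*Tgif2*) and chr2:173224458-173276533 (*Pmepa1*), and *Bambi* is on chromosome 18. All 8 passed the filters on low counts in every comparison. The libraries came from mouse PDAC (pancreatic ductal adenocarcinoma) cells of the KC-shSmad4 model, which carry *Ptf1a*-Cre, a reverse tetracycline transactivator linked to the red fluorescent protein mKate2, and a doxycycline (Dox)-inducible, GFP-linked shRNA against *Smad4*. Cell lines derived from such tumors were injected into the pancreas (primary tumors), the spleen (liver metastases) or the tail vein (lung metastases) of female athymic nude (*Foxn1*nu) mice aged 6 to 8 weeks, which lack most T cells, and mKate2-positive tumor cells were sorted. Every host ate Dox chow at first. Dox was kept in the groups labelled Smad4 off and withdrawn 7 or 14 days before harvest in those labelled Smad4 on, after 4 weeks on Dox for primary tumors, 5 for liver and 6 for lung metastases. The organ therefore cannot be told apart from the injection route and the time on Dox. On day 7 there were 3 libraries labelled off and 2 labelled on from the pancreas, 2 and 3 from the liver, and 4 and 2 from the lungs. On day 14 there were 2 and 3, 3 and 3, and 4 and 4. The labels do not say which cell line or shRNA each library carried.

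TGF-beta ligands bind type I and type II receptor kinases, which phosphorylate Smad2 and Smad3, and these join Smad4 in complexes that bind DNA. The pathway restrains itself at several levels: *Bambi* encodes a decoy receptor without a kinase domain, *Pmepa1* a membrane protein that captures receptor-activated Smads, and *Smurf1* and *Smurf2* ubiquitin ligases that mark Smads and receptors for degradation. *Ski*, *Skil* (SnoN), *Tgif1* and *Tgif2* encode nuclear corepressors that bind Smad complexes on DNA. Several of these genes are themselves transcribed in response to TGF-beta, and *SMAD4* is a frequently lost tumor suppressor of human PDAC.

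*Ski*, *Smurf1* and *Smurf2* were lower in libraries labelled on in the average tested below, although that of *Ski* rested on 1 liver library. Each has 1 start in RefSeq's table of promoters (GRCm38.p6). For these reasons the stretch upstream of the start is shown up to the first annotated exon of any gene, 5′ to 3′ on the strand of the gene. The *Ski* and *Smurf1* stretches reach their own genes. The *Smurf2* stretch stops at another gene's exon, and the 46 bases next to the *Smurf2* start are not shown. Capitals mark CAGAC or its reverse complement GTCTG, letters of the Smad-binding element.
Ski, chr4:155222593-155222785, minus strand: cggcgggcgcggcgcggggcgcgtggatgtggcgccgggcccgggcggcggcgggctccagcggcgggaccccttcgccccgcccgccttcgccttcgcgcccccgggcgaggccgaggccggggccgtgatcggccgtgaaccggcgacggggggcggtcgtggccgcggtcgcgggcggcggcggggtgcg
Smurf1, chr5:144965848-144966080, minus strand: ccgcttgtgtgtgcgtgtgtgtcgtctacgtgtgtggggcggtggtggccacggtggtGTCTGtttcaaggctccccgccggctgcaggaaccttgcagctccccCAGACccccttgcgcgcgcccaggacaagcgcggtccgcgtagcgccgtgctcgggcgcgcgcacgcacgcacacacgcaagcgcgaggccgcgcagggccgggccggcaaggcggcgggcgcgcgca
Smurf2, chr11:106920762-106920965, minus strand: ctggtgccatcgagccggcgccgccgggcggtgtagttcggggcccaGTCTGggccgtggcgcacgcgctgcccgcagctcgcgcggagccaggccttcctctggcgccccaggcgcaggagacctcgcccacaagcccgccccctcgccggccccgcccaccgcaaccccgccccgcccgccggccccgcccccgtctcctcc
The *Smurf1* stretch of 233 bases held 2 such matches, and 40% of all 32851 promoters in the table held at least 1 in a window of that length. The *Smurf2* stretch of 204 bases held 1 match, against 36.4% of promoters, and the *Ski* stretch of 193 bases held none, against 34.9%. The palindrome GTCTAGAC was in none of the 3 stretches and in 0.146% to 0.164% of promoters. The letters GGCGC or GCGCC occurred 6 times in *Ski*, 4 times in *Smurf1* and 6 times in *Smurf2*, and at least once in 24.8% to 29.9% of promoters. These matches describe the letters only, and nothing here measured binding.

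Reads counted on genes numbered 11.9 to 43.6 M per library (median 19.4 M), so that the floor of 3 counts lay at 0.0684 to 0.239 CPM (counts scaled to library size with edgeR's TMM factors), a limit that covers counting error only. *Smad4* mRNA went against the labels in every library: it lay between 69.9 and 143 CPM in the 18 libraries labelled Smad4 off and between 14.8 and 22.4 CPM in the 17 labelled Smad4 on. Its average log2 fold change over organs and days was −2.51 ± 0.071 (SE, adjusted p = 1.73e-19, edgeR's quasi-likelihood test). The groups are therefore called by their labels throughout, and every fold change is labelled on minus labelled off. The labels give replicate 2 of the day 7 liver group labelled off as paired-end and all other libraries as single-end. That library held a summed 35857 CPM of the 8 fibroblast markers (such as *Col1a1* and *Pdgfra*), whereas the other library of its group held 327 CPM. The same markers summed to 8827 to 24421 CPM in pancreas libraries and to 159.9 to 4310.1 CPM in the single-end liver and lung libraries. The 6 tumor epithelium markers (such as *Krt19* and *Epcam*) were above 1 CPM in every library and summed to 2381 to 7090.2 CPM in the pancreas, 3835 CPM in the paired-end liver library and 5481 to 15037 CPM in the other metastases. Counts of *mt-Co3* were present in 10 of 35 libraries, none of them from the pancreas, and the labels do not say why.

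Per kilobase of transcript, *Pmepa1* and *Tgif1* were the most abundant members, with medians over all libraries of 44.6 and 40.5 CPM per kb, and their ranges overlapped widely (18.9 to 142 and 19.1 to 86.9). *Ski* followed at 27.3 CPM per kb (16.5 to 70.3), then *Skil* at 17.7 (8.41 to 34.9), *Smurf1* at 12.7 (8.43 to 23.5) and *Smurf2* at 12.2 (9.54 to 21.6). *Smurf1* and *Smurf2* could not be ordered beyond their spread. *Tgif2* and *Bambi* were far lower, with medians of 0.50 and 0.43 CPM per kb, and rested on as few as 14 and 7 counts in a library. *Bambi* varied most, 37.1-fold between its lowest and highest library (0.53 to 19.6 CPM), and *Smurf2* least, 2.26-fold (58.8 to 133 CPM).

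**Figure D1:**
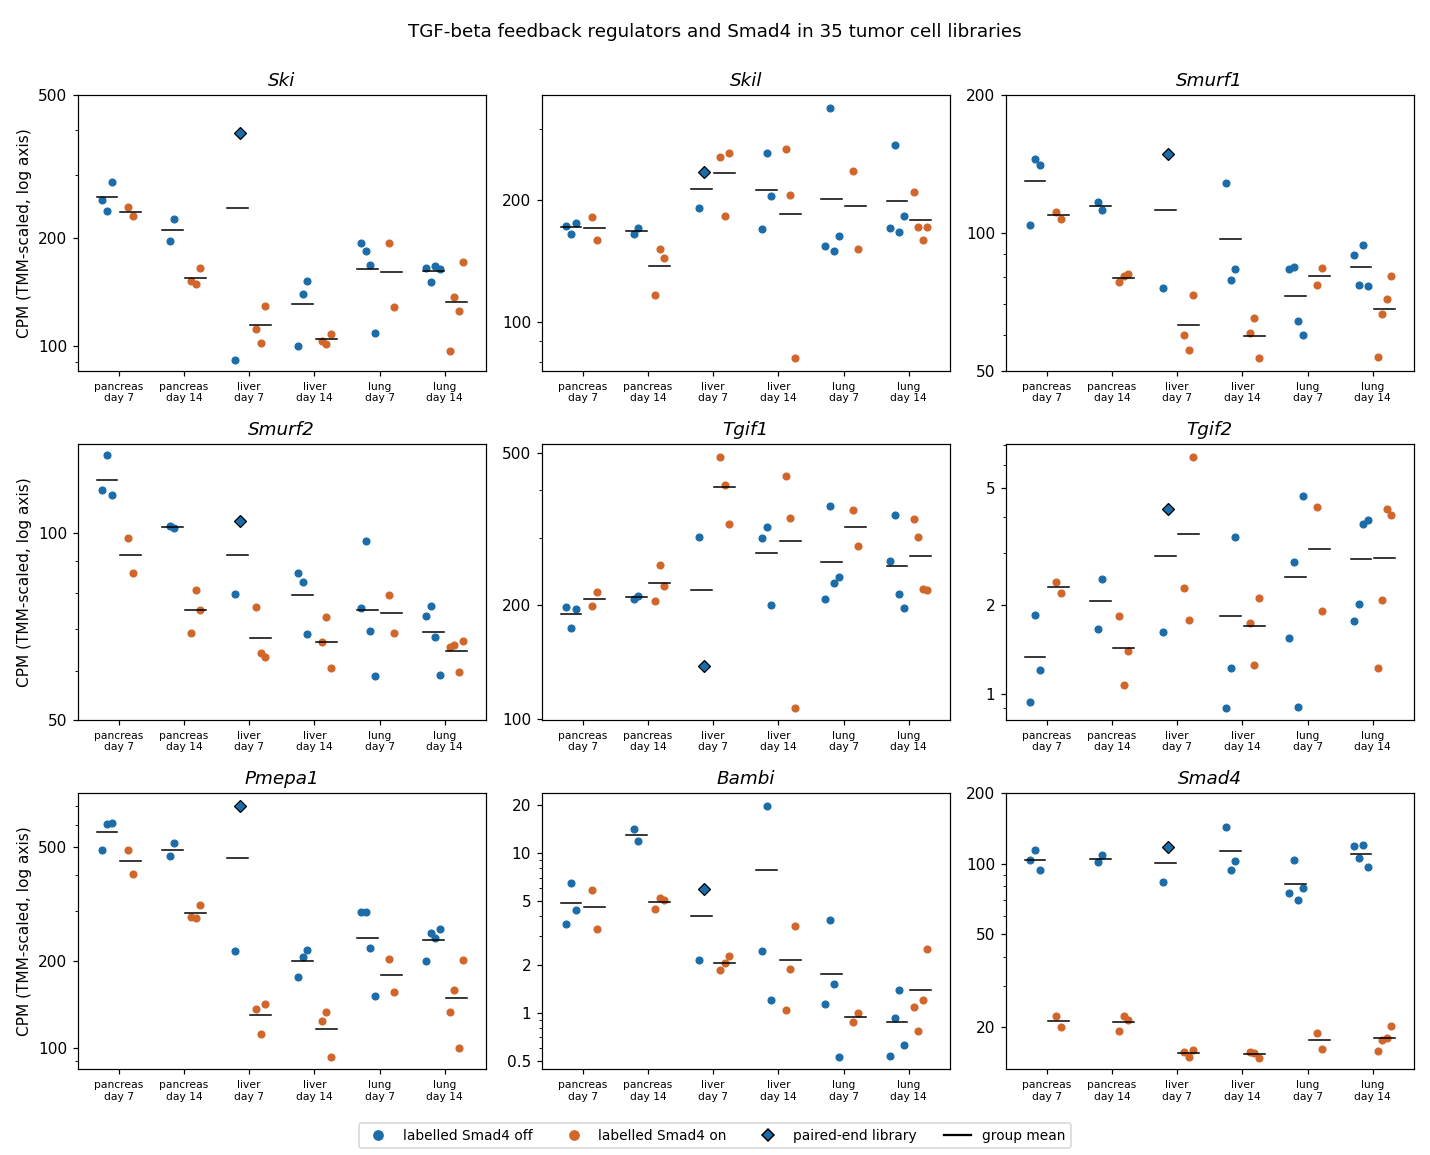
TMM-scaled CPM (log axis) of the 8 feedback regulators and of *Smad4* in each of 35 libraries, by organ and day, with libraries labelled Smad4 off in blue, those labelled on in orange, horizontal lines at group means and a diamond for the paired-end liver library. *Pmepa1* ran from 92.9 to 697 CPM with its highest value in the paired-end library, and 8 of the 10 pancreas libraries lay above every single-end liver and lung library, while *Smad4* was at or below 22.4 CPM in every library labelled on.

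Averaged over the 3 organs and 2 days, 4 of the 8 members were called lower in libraries labelled Smad4 on and none higher at a Benjamini-Hochberg adjusted p under 0.05 (edgeR's quasi-likelihood test, 1 fit of all 12 groups). Among all 17547 genes tested, 24.6% were called, 11.8% lower and 12.8% higher. The called members were *Pmepa1*, *Smurf1*, *Smurf2* and *Ski*. The median log2 fold change of the 8 members was −0.33, beside 0.01 over all genes. DESeq2 called 5 members, *Bambi* being the fifth. Of the 8 fibroblast markers none was called in this average (median log2 fold change −0.36), and 2 of 6 tumor epithelium markers were called higher. Of 5 acinar markers 2 were called lower (*Prss2* and *Cela1*, list median −1.89), while 1 of 4 hepatocyte markers (*Ttr*) and 1 of 7 immune markers (*Cd79a*) were called higher, and no endothelial or lung epithelium marker was called. Whether cell composition plays a part in these differences was not tested. In sorted bulk samples, fewer cells of a type and less RNA per cell cannot be told apart.

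*Pmepa1* showed the largest average difference of the called members, −0.80 ± 0.12 on the log2 scale (adjusted p = 3.97e-05, edgeR), a 1.74-fold lower level. In the pancreas on day 14 the libraries labelled off held 467 and 516 CPM and those labelled on 286, 282 and 315 CPM, without overlap. With 2 or 3 libraries a group this was common: 45.5% of 15071 genes did not overlap there, 24.1% with the lower values in libraries labelled on. On day 7 the pancreas values were 490, 601 and 609 CPM against 490 and 403 CPM. In the liver the groups did not overlap on either day, with 218 and 697 against 136, 112 and 142 CPM on day 7, and 177, 207 and 219 against 123, 133 and 92.9 CPM on day 14. The 697 CPM belonged to the paired-end library. Among all genes 46% did not overlap in the liver on day 7 (19.8% lower in libraries labelled on) and 15.1% on day 14 (6.62% lower). In the lungs the groups overlapped: 152 to 298 CPM (median 260) in 4 libraries labelled off against 204 and 156 CPM on day 7, and 201, 251, 242 and 259 against 134, 159, 99.8 and 203 CPM on day 14. In the order of the mouse numbers, as given here for day 14, the library labelled on held less at all 4 numbers. With the mouse number as a block the difference was −0.72 (adjusted p = 0.0557, against 0.304 without the block, edgeR). The labels do not say that equal numbers are pairs. Of the libraries labelled on, only that with 203 CPM exceeded any value labelled off, so other pairings would also give less in every pair. *Pmepa1* was below 0 in all 6 organs and days, with log2 fold changes of −0.33 ± 0.15 and −0.72 ± 0.095 for primary tumors, −1.89 ± 0.49 and −0.82 ± 0.19 for liver and −0.40 ± 0.29 and −0.69 ± 0.21 for lung metastases on days 7 and 14. Without the paired-end library the liver difference on day 7 was −0.85 (adjusted p = 0.0744, edgeR). *Pmepa1* passed the test in 1 of the 6, the pancreas on day 14 (adjusted p = 0.00339, edgeR). Its average was called in each of 35 fits that left out 1 library, with log2 fold changes of −0.91 to −0.62, the smallest without the paired-end library. In a fit of the 24 single-end liver and lung libraries alone, *Pmepa1* was the only member still called (−0.69, adjusted p = 0.00267, edgeR).

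*Bambi* showed an average of similar size, −0.76 ± 0.31 on the log2 scale, with a wider error, and was not called (adjusted p = 0.0712, edgeR, and 0.044 by DESeq2). In the pancreas on day 14 it fell by 1.39 ± 0.18 on the log2 scale (adjusted p = 0.00294, edgeR), the one member that was called with a fold over 2 in any organ and day. The libraries there held 14.1 and 11.9 CPM when labelled off and 4.42, 5.20 and 5.05 CPM when labelled on. On day 7 the pancreas groups overlapped, with 3.59, 6.48 and 4.41 against 5.85 and 3.34 CPM. In the liver on day 14 one library labelled off, replicate 2, held 19.6 CPM, and the other libraries of that organ and day 1.04 to 3.50 CPM. In the lungs the level was 0.53 to 3.81 CPM in all 14 libraries, with differences of −0.86 ± 0.80 on day 7 and 0.65 ± 0.47 on day 14, neither called. The average was called in 6 of 35 fits that left out 1 library (adjusted p = 0.0231 to 0.232, edgeR), so single libraries decided that call.

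Of the ubiquitin ligases, *Smurf1* was lower in libraries labelled on at an average of −0.41 ± 0.088 (log2, adjusted p = 0.00104, edgeR), and *Smurf2* at −0.28 ± 0.062 (adjusted p = 0.0017). In the pancreas on day 14 *Smurf1* held 117 and 112 CPM in libraries labelled off and 78.1, 80.4 and 81.2 CPM in those labelled on. *Smurf2* held 102 CPM in both libraries labelled off there and 69.0, 80.9 and 75.1 CPM in those labelled on. Both pairs of groups were apart, as they were for 24.1% of all genes in that direction, and both genes were called (log2 fold changes −0.50 ± 0.075 and −0.42 ± 0.091, adjusted p = 0.00543 and 0.021, edgeR). *Smurf1* was also without overlap in the liver, at 75.9 and 149 against 60.0, 55.5 and 73.1 CPM on day 7 and at 129, 78.8 and 83.6 against 60.4, 65.2 and 53.4 CPM on day 14. These liver differences, −0.91 ± 0.31 and −0.75 ± 0.24 on the log2 scale, were not called, and such a separation was seen in 19.8% and 6.62% of all genes on days 7 and 14. The 149 CPM belonged to the paired-end library, without which the day 7 difference was −0.38 (adjusted p = 0.3, edgeR). In the lungs the groups of both genes overlapped, and the differences on days 7 and 14 were 0.17 ± 0.19 and −0.31 ± 0.15 for *Smurf1* and 0.00 ± 0.20 and −0.11 ± 0.10 for *Smurf2*. The averages of both genes were called in each of the 35 fits that left out 1 library. In the 24 single-end liver and lung libraries alone neither was called (−0.31, adjusted p = 0.056, and −0.18, adjusted p = 0.187, edgeR).

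Of the nuclear corepressors, *Ski* alone was called in the average, at −0.38 ± 0.13 on the log2 scale (adjusted p = 0.0283, edgeR), and that call rested on 1 library. The paired-end liver library labelled off held 391 CPM of *Ski*, the highest value of all 35, and the other library of its group 91.6 CPM, the lowest. Without the paired-end library the average was −0.15 (adjusted p = 0.246, edgeR), and the difference in the liver on day 7 turned from −1.15 ± 0.58 to 0.21, neither called. With the mouse number as a block, the average of *Ski* was −0.39 (adjusted p = 0.0676, edgeR). In the pancreas on day 14 *Ski* held 196 and 225 CPM in libraries labelled off and 152, 148 and 165 CPM in those labelled on (−0.42 ± 0.099, adjusted p = 0.0297, edgeR).

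*Skil*, whose protein is itself degraded upon TGF-beta signaling, had an average of −0.09 ± 0.13 (log2, adjusted p = 0.69, edgeR) and was not called in any organ and day. Its libraries labelled off held 150 to 339 CPM and those labelled on 81.5 to 268 CPM, and the groups overlapped everywhere but in the pancreas on day 14, where 165 and 171 CPM stood against 117, 152 and 144 CPM, a separation shared by 24.1% of all genes. *Tgif1* went the other way without passing the test, at 0.28 ± 0.14 on the log2 scale (adjusted p = 0.176, edgeR). Its log2 fold change was above 0 in all 6 organs and days, and 0.81 ± 0.41 in the liver on day 7 was the largest. In the pancreas on day 7 its groups were apart (173 to 197 against 199 and 215 CPM), as were 20.6% of all genes in that direction. In the liver on day 7 the libraries labelled off held 300.2 and 138 CPM and those labelled on 489, 412 and 325 CPM. These groups were apart too, as were 26.2% of all genes in that direction. The 138 CPM belonged to the paired-end library, without which the difference was 0.34 (adjusted p = 0.521, edgeR). The average of *Tgif1* was called when the presence of *mt-Co3* counts was a covariate (0.28, adjusted p = 0.0334, edgeR) and without liver replicate 3 labelled on of day 14 (0.34, adjusted p = 0.0281), a library with 107 CPM beside 436 and 337 CPM in its group. *Tgif2*, the other TGIF homeodomain corepressor, lay between 0.90 and 6.38 CPM and averaged 0.12 ± 0.26 (log2, adjusted p = 0.807, edgeR). Its groups were apart in the pancreas on day 7, with 0.94, 1.85 and 1.21 CPM in libraries labelled off and 2.39 and 2.21 CPM in those labelled on (0.80 ± 0.39, adjusted p = 0.274, edgeR), where 20.6% of all genes were apart in that direction.

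Within single organs and days, members were called in the pancreas on day 14 and nowhere else. In that comparison 5 of 8 members were called, all lower in libraries labelled on (*Ski*, *Smurf1*, *Smurf2*, *Pmepa1* and *Bambi*), where 12.9% of all 14234 genes tested were called and 6.3% were called lower. DESeq2 called 5 members there too. Tumor epithelium markers summed to 3979.7 and 4228 CPM in the 2 libraries labelled off and to 4958 to 7090.2 CPM in the 3 labelled on, and fibroblast markers to 12052 and 12727 CPM against 8827 to 17427 CPM. Their part in the result was not tested. Counted reads numbered 28.6 and 32.2 M in the libraries labelled off and 12.2 to 14.3 M in those labelled on. Depth therefore cannot be told apart from the label there, and its part was not tested. Each group holds 2 or 3 libraries: without replicate 1 labelled off *Pmepa1* was the only member called, and without replicate 2 labelled off 3 members were. *Ski* was also lost without replicate 2 labelled on, and *Smurf2* without replicate 3 labelled on. With the mouse number as a block 3 members were called, and in the fit of all 12 groups, which shares 1 estimate of the spread, none was (5 log2 fold changes of −1.41 to −0.44).

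In the other 5 organs and days edgeR called 0 of 8 members. In the pancreas on day 7, where 2.24% of all genes were called, 1 member (*Smurf2*, −0.39 ± 0.12) had an unadjusted p under 0.05, as had 23.1% of genes, and DESeq2 called none, beside 10.1% of genes. In the liver on day 7, with 0.444% of genes called, 3 members had an unadjusted p under 0.05, all lower in libraries labelled on, and DESeq2 called 1, *Pmepa1* (−1.87, adjusted p = 0.00394). Of all genes 27.1% had an unadjusted p under 0.05 there, and DESeq2 called 23.6%. Without replicate 1 labelled off, which leaves the paired-end library alone in its group and assumes that it varies like the other group, edgeR called 5 members there, beside 22.2% of all genes. In the liver on day 14 edgeR called 0% of genes (1447 had an unadjusted p under 0.05 and DESeq2 called 400), 2 members had an unadjusted p under 0.05 and DESeq2 called *Pmepa1* (−0.84, adjusted p = 0.00972). In the lungs on day 7 edgeR again called 0% of genes (793 unadjusted, 108 by DESeq2), and no member had an unadjusted p under 0.05 or a call by DESeq2. In the lungs on day 14, where edgeR called 0.0271% of genes, 1 member (*Pmepa1*) had an unadjusted p under 0.05, as had 10.1% of genes, and DESeq2 called none, beside 2.6% of genes. *Smad4* itself passed edgeR's test in 4 of the 6 comparisons and missed it in liver libraries of day 14 (adjusted p = 0.0625) and in lung libraries of day 7 (adjusted p = 0.151).

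**Figure D2:**
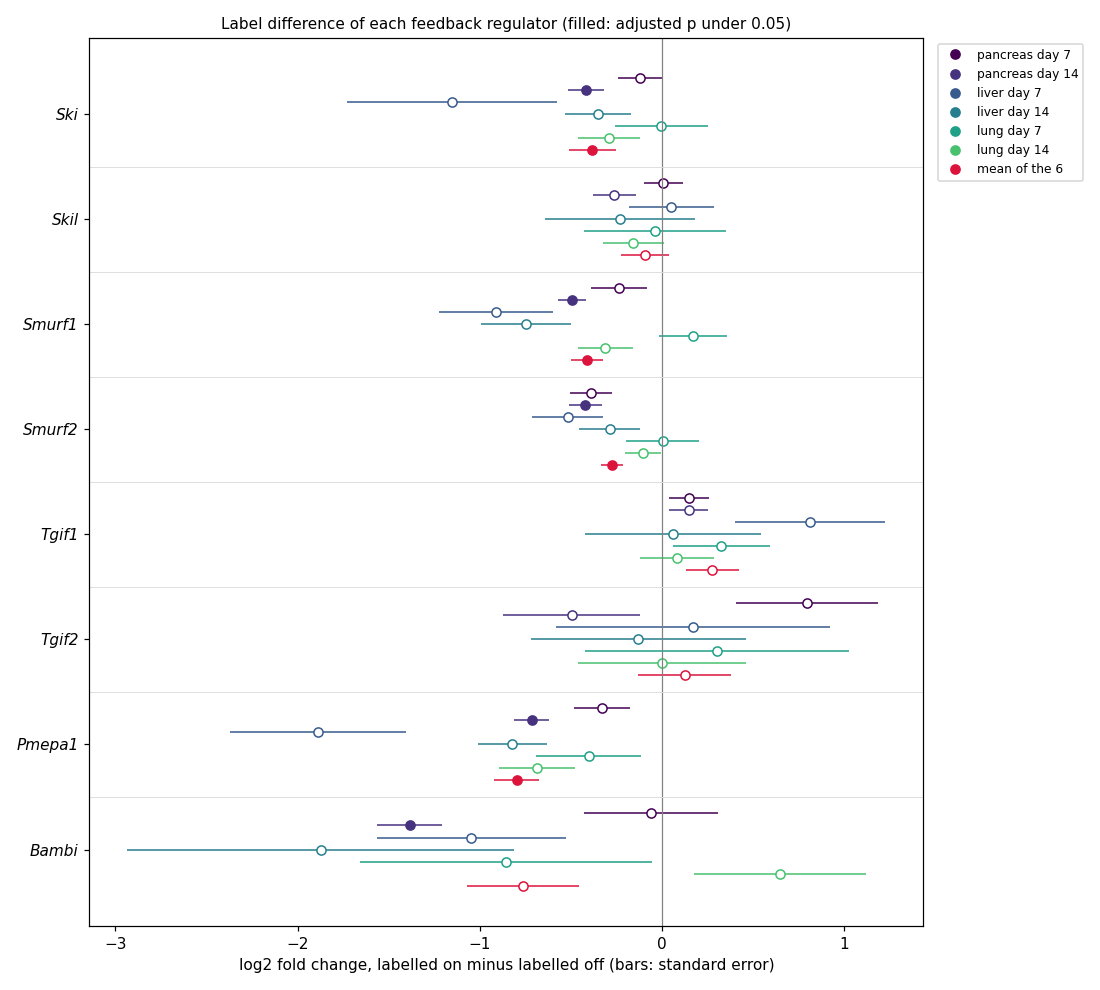
Log2 fold change (labelled on minus labelled off, with standard errors) of each feedback regulator in 6 organs and days and in their mean, with filled points for an adjusted p under 0.05 in edgeR. *Pmepa1* is below 0 in every comparison, *Tgif1* above 0 in every comparison, and the filled points are those of the pancreas on day 14 and of the mean.

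The study asked whether the response depends on the organ, which an interaction of organ and label tests directly. Between liver and pancreas 0 of 8 members differed in their response, beside 2.1% of all genes, and between lungs and pancreas 0 of 8, beside 0.0399%. In each of these tests 1 member had an unadjusted p under 0.05, *Pmepa1* in the former (−0.76 ± 0.31) and *Smurf2* in the latter (0.36 ± 0.15), where 16.7% and 9.53% of all genes had one, and DESeq2 called no member, beside 5.41% and 0.678% of genes. Without the paired-end library the former was −0.22 (adjusted p = 0.784, edgeR). Between liver and lungs 1 of 8 members was called, beside 9.54% of all genes. That member was *Smurf1*, whose label difference was lower in the liver, at −0.69 ± 0.21 on the log2 scale (adjusted p = 0.0357, edgeR). Without the paired-end library this was −0.40 (adjusted p = 0.231), with the mouse number as a block it was −0.64 (adjusted p = 0.125), and 9 of the 35 fits that left out 1 library did not call it. The response of *Pmepa1* differed between liver and lungs by −0.75 ± 0.29 (adjusted p = 0.1, edgeR) and by −0.21 without the paired-end library. Between day 14 and day 7 edgeR called 0% of genes (644 unadjusted, 2 by DESeq2) and 0 of 8 members, none with an unadjusted p under 0.05, and the members' differences lay between −0.66 ± 0.51 (*Tgif2*) and 0.13 ± 0.25 (*Pmepa1*).

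Levels differed between organs within 1 label, most in *Pmepa1* and *Bambi*. In libraries labelled off, 5 of 8 members were called between lungs and pancreas, beside 35% of all genes, and all 5 were lower in the lungs. *Bambi* was lower, at −2.67 ± 0.49, *Pmepa1* at −1.14 ± 0.20, *Smurf1* at −0.64 ± 0.14, *Smurf2* at −0.63 ± 0.10 and *Ski* at −0.52 ± 0.21 on the log2 scale (adjusted p = 0.000145, 7.07e-05, 0.000972, 2.81e-05 and 0.0496, edgeR). The *Ski* call was kept in 16 of the 35 fits that left out 1 library, while the other 4 were called in all 35. Pancreas libraries labelled off held 467 to 609 CPM of *Pmepa1* and 3.59 to 14.1 CPM of *Bambi*, and lung libraries labelled off 152 to 298 CPM and 0.53 to 3.81 CPM. Between liver and pancreas 2 of 8 members were called in libraries labelled off, beside 17.3% of genes: *Smurf2* (−0.38 ± 0.11, adjusted p = 0.021) and *Pmepa1* (−0.80 ± 0.23, adjusted p = 0.0161), both lower in the liver. Without the paired-end library 4 were called, with *Ski* at −1.10 (adjusted p = 0.000102), *Pmepa1* at −1.33 (adjusted p = 6.21e-05), *Smurf1* at −0.50 (adjusted p = 0.0235) and *Smurf2* at −0.48 (adjusted p = 0.00703). Without replicate 1 of the same liver group, or without pancreas replicate 2 labelled off of day 14, none was called, and without pancreas replicate 1 of that group or liver replicate 3 labelled off of day 14 only *Pmepa1* was.

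Between liver and lungs, *Bambi* was the 1 of 8 members called in libraries labelled off, beside 8.8% of genes, higher in the liver by 2.17 ± 0.49 (log2, adjusted p = 0.00606, edgeR). It was 1.72 without the paired-end library (adjusted p = 0.051) and 1.13 without liver replicate 2 labelled off of day 14 (adjusted p = 0.0908), the library with 19.6 CPM. *Ski* changed direction in this comparison, from 0.13 ± 0.21 to −0.57 (adjusted p = 0.04, edgeR) without the paired-end library.

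In libraries labelled on, none of which was paired-end, 5 of 8 members were called between liver and pancreas, beside 39.8% of all genes. *Pmepa1* (−1.56 ± 0.21), *Ski* (−0.81 ± 0.22), *Smurf1* (−0.61 ± 0.15) and *Smurf2* (−0.30 ± 0.11) were lower in the liver, and *Tgif1* was higher (0.67 ± 0.25, log2, adjusted p = 2.61e-06, 0.00447, 0.0022, 0.0263 and 0.0373, edgeR). The first 3 were called in each of 35 fits that left out 1 library, *Smurf2* in 31 and *Tgif1* in 20. Between lungs and pancreas 2 of 8 were called, beside 25.9% of genes: *Pmepa1* (−1.15 ± 0.22, adjusted p = 0.000495) and *Bambi* (−2.05 ± 0.57, adjusted p = 0.00995). With the presence of *mt-Co3* counts as a covariate *Tgif1* was called too, higher in the lungs at 0.75 labelled on and 0.60 labelled off (adjusted p = 0.00417 and 0.00707, edgeR). Between liver and lungs edgeR called 0 of 8, beside 20.1% of genes, with no member at an unadjusted p under 0.05 and none called by DESeq2, although *Ski* was called (−0.41, adjusted p = 0.0358, edgeR) when the paired-end library was left out of the shared fit.

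Cell type markers moved with these organ differences. Between lungs and pancreas in libraries labelled off, 8 of 8 fibroblast markers were called lower and 6 of 6 tumor epithelium markers higher in the lungs, and 5 of 5 acinar markers were lower, while 4 of 4 lung epithelium and 3 of 4 hepatocyte markers were higher, 1 of 4 endothelial markers was higher, and of 7 immune markers 1 was higher and 2 were lower. Between liver and pancreas 2 of 8 fibroblast markers were called lower and 5 of 6 tumor epithelium markers higher in the liver, with 5 of 5 acinar, 3 of 4 endothelial and 3 of 7 immune markers lower and 2 of 4 hepatocyte markers higher. Between liver and lungs, where *Bambi* was called, 7 of 8 fibroblast markers were higher in the liver (median log2 difference 2.67), as were 1 of 4 hepatocyte and 1 of 5 acinar markers, and 4 of 4 lung epithelium, 3 of 4 endothelial and 3 of 7 immune markers were lower. Acinar markers summed to 579 to 2663 CPM in the pancreas, to 307 CPM in the paired-end liver library and to 2.94 to 16.9 CPM in the other metastases, and lung epithelium markers to 53.8 to 426 CPM in the lungs and to 0.58 to 1.70 CPM elsewhere. The liver marker counts include the paired-end library, with 35857 CPM of fibroblast markers, and no marker was tested without it. The other liver libraries labelled off held 327 CPM of these markers on day 7 and 259, 4310 and 1756 CPM on day 14. Lung libraries labelled off held 166 to 1999 CPM. The part of these cells in the members' organ differences was not tested.

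**Figure D3:**
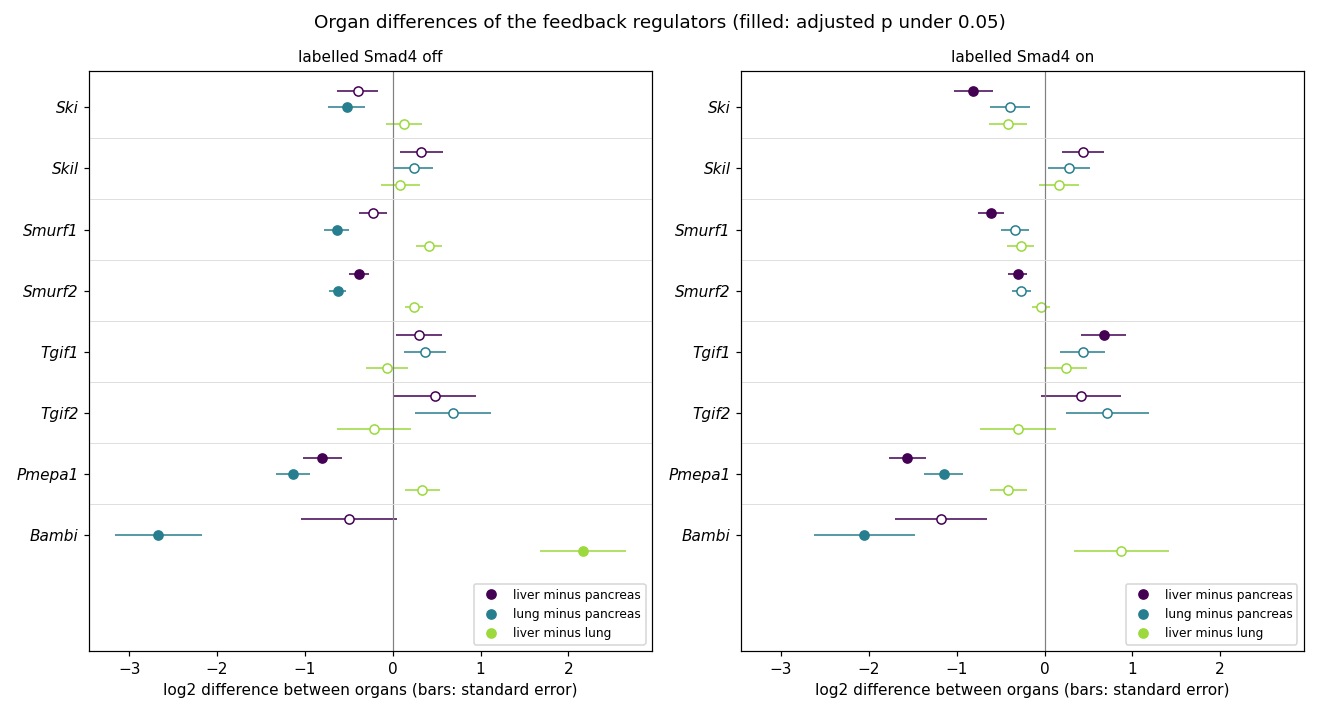
Log2 differences between organs (mean of both days, with standard errors) of each feedback regulator in libraries labelled Smad4 off (left) and on (right), with filled points for an adjusted p under 0.05 in edgeR. *Pmepa1* lies between −1.56 and −0.80 against the pancreas in all 4 contrasts with the pancreas, and *Bambi* at −2.67 and −2.05 in the lungs against the pancreas.

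Other genes of the pathway were followed in 3 lists. Of 18 other negative regulators and turnover factors, 3 were called lower and 2 higher in libraries labelled on in the average over organs and days (median log2 fold change −0.02). *Smad7*, the inhibitory Smad, was lower, at −0.54 ± 0.13 and *Ldlrad4*, a relative of *Pmepa1*, at −0.46 ± 0.11, while *Tob1*, an antiproliferative protein, was higher by 0.49 ± 0.10 and *Nedd4l*, a ubiquitin ligase, by 0.28 ± 0.078 (adjusted p = 0.00348, 0.00242, 0.000646 and 0.00879, edgeR). *Nedd4l* went both ways: it was at −0.37 ± 0.12 and −0.33 ± 0.097 in the pancreas on days 7 and 14, at 1.13 ± 0.27 and 0.53 ± 0.19 in the liver and at 0.20 ± 0.20 and 0.45 ± 0.13 in the lungs. None of these was called, but the liver-pancreas interaction was (1.25 ± 0.20, adjusted p = 0.00308, edgeR). Of 18 ligands, receptors and Smads, 5 were called lower and 2 higher (median −0.21). The ligand *Tgfb1* was lower, at −0.73 ± 0.15, the receptors *Acvr1* at −0.44 ± 0.082 and *Bmpr2* at −0.45 ± 0.098, and the activin receptor *Acvr1b* was higher by 0.54 ± 0.10 (adjusted p = 0.00054, 0.000283, 0.00141 and 0.000321). Of 20 genes known to respond to TGF-beta or BMP, 10 were called lower and none higher (median −0.59). *Has2*, a hyaluronan synthase, was lower, at −1.997 ± 0.26, *Fn1*, which encodes fibronectin, at −1.55 ± 0.20, *Spsb1*, a SOCS-box protein, at −0.95 ± 0.13, and *Snai2*, a transcription factor of epithelial-mesenchymal transition, at −0.84 ± 0.18 (adjusted p = 6.09e-06, 5.4e-06, 8.53e-06 and 0.000872). The members' median of −0.33 lay between those of the transducers and of the response genes. These averages include the paired-end library, and the response genes' median ran from −1.25 in the liver on day 7 to 0.06 in the pancreas on day 7. Without that library 7 response genes were called lower and none higher (median −0.42), 3 transducers lower and 3 higher (−0.06), 2 other regulators lower and 2 higher (−0.01) and 3 members lower (−0.20), beside 9.64% of all genes lower and 10.9% higher, and the 12 genes named here kept their direction and their call. The lists were not tested as sets, and among all genes 11.8% were lower and 12.8% higher.

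**Figure D4:**
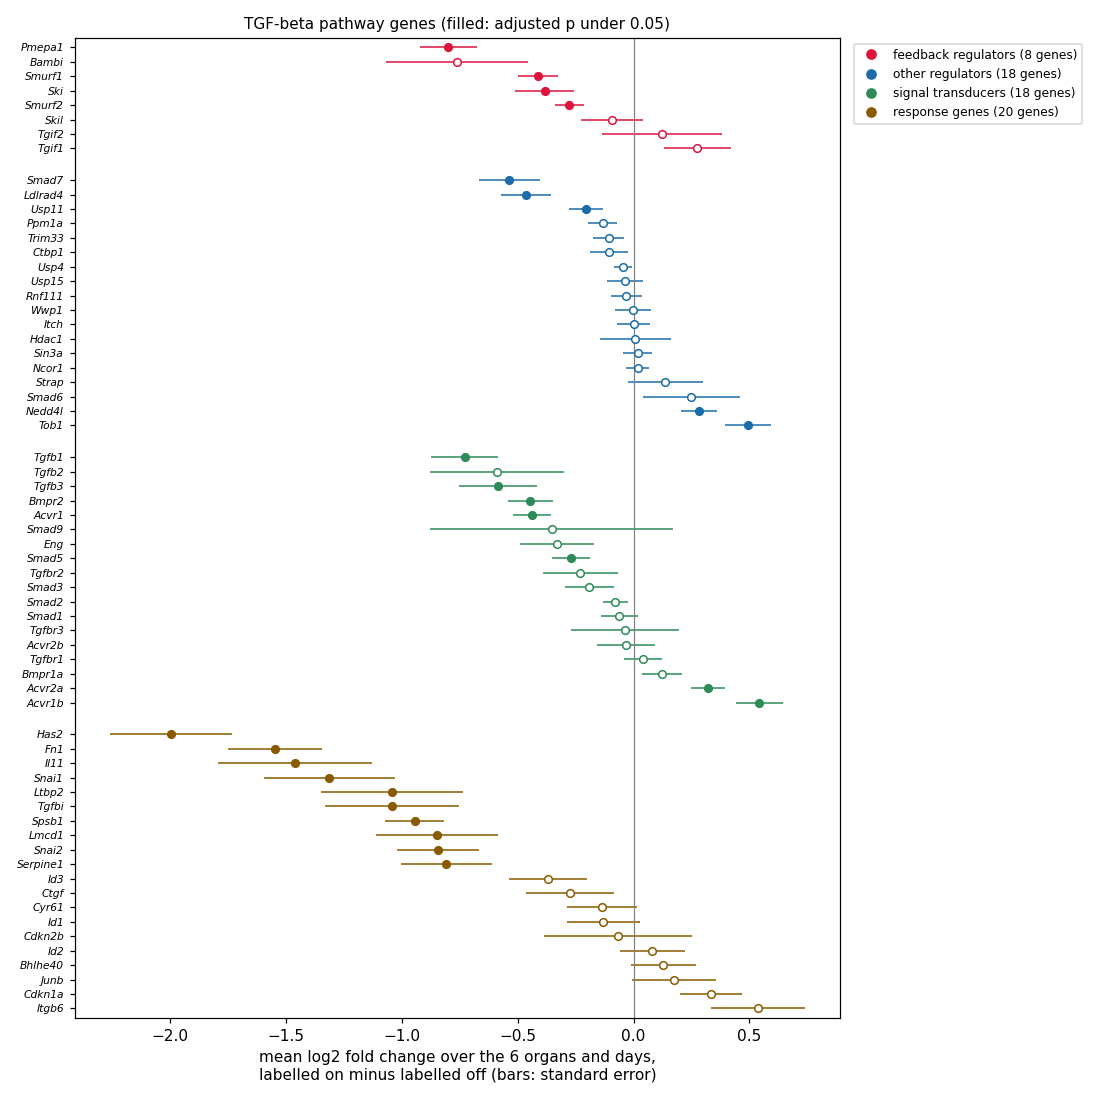
Average log2 fold change (labelled on minus labelled off over 6 organs and days, with standard errors) of the 8 feedback regulators and of 18 other regulators, 18 signal transducers and 20 response genes, with filled points for an adjusted p under 0.05 in edgeR. *Pmepa1* (−0.80) leads the lower members, *Has2* (−1.997) the lower response genes, and all called response genes lie below 0.

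The members did not vary as 1 block. Over the 35 libraries the log2 CPM of *Pmepa1* was correlated with that of *Ski* (Pearson's r = 0.888), *Smurf1* (0.849) and *Smurf2* (0.837), and *Smurf1* with *Smurf2* (0.817), while *Skil* had r of 0.011 with *Pmepa1* and 0.013 with *Ski*. *Skil* went with *Tgif1* (0.665), and *Tgif1* ran against *Pmepa1* (−0.472) and *Ski* (−0.544). These are descriptions over libraries that share organs, labels and scaling. After the mean of each of the 12 groups was taken away, r was 0.852 for *Ski* and *Pmepa1*, 0.604 for *Smurf1* and *Pmepa1*, 0.515 for *Smurf1* and *Smurf2* and 0.72 for *Skil* and *Tgif1*. All of these include the paired-end liver library, and r was not computed without it. Its group held 91.6 and 391 CPM of *Ski*, 218 and 697 CPM of *Pmepa1* and 75.9 and 149 CPM of *Smurf1*. The SD within groups was smallest for *Smurf2* (0.17 on the log2 scale) and largest for *Bambi* (0.91).

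By the same measure over all 17547 genes, the gene most like each member across the 35 libraries was *Nav1* for *Pmepa1* (r = 0.957), *Fez1* for *Bambi* (0.86), *Mras* for *Smurf1* (0.927), *Picalm* for *Smurf2* (0.919), *Abl1* for *Ski* (0.949), *Noct* for *Skil* (0.873), *Ccnl1* for *Tgif1* (0.901) and *Junb* for *Tgif2* (0.833). The next ones were *Myo5a* and *Fam126a* for *Pmepa1*, *Prrx1* and *Mpzl1* for *Bambi*, *Dip2a* and *Amotl1* for *Smurf1*, and *Rap1gds1* and *Phtf2* for *Smurf2*. For the corepressors they were *Nfic* (*Ski*), *Spty2d1* and *Iffo2* (*Skil*), *Tnfrsf10b* and *Tatdn2* (*Tgif1*), and *Jund* and *Egr4* (*Tgif2*).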

How the data were processed

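RNA from sorted tumor cells was poly(A)-selected and made into stranded libraries (TruSeq) by the study, read as 75-bp single ends, with 1 library labelled paired-end. Per the labels, reads were handled with FastQC 0.11.5, Trimmomatic 0.36, STAR 2.5.3a and featureCounts 1.6.3 on GRCm38. The authors deposited whole-number counts per gene, not normalized, for 53465 genes. The strand setting of the counting is not given in the sources used here, so that reads of overlapping antisense genes may be included.

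Each count column was matched to the sample whose title it carries, which left no column over, and no libraries were identical. Library totals were 11.9 to 43.6 M. Levels are TMM-scaled CPM. Tests were edgeR 4.0.16 quasi-likelihood tests (filterByExpr, robust, R 4.3.3), with 6 separate fits for the organs and days and 1 fit of 12 groups for averages, interactions and organ differences, adjusted by Benjamini-Hochberg over all genes tested. SE is the log2 fold change divided by the square root of F. A gene was called at an adjusted p under 0.05. Both fits were tested on simulated counts with label differences larger than any called for a member. That test therefore cannot tell how well differences of the members' size are found. The members and gene lists were chosen with earlier results of these data known. Up to 4 genes per list were named by the lowest adjusted p in the average, and likeness was Pearson's r of log2 CPM (prior count 2). Promoter sequences came from RefSeq's table, trimmed to bases outside exons of GENCODE vM21. They matched 5 of the 8 members, and the table held none for *Pmepa1*. Those of members with several starts or without called differences are not shown.

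Alternatives were DESeq2 1.42.0, its size factors, no filter, at least 10 counts in every library, a fold over 2, each library left out, the mouse number as a block, 1 fit for all groups and an *mt-Co3* covariate. After the data were seen, fits of the metastases without the paired-end library and of libraries with or without *mt-Co3* counts were added, as was the average of the pathway lists without the paired-end library. Nothing in the labels says that replicates share or do not share an animal across groups, and p-values measure the spread between libraries, which may be partly technical. Same-numbered libraries of the lungs on day 14 deviated together at all 4 numbers (r = 0.546 to 0.653), so the block fit of *Pmepa1* is given there. However, 3 of these 4 libraries labelled on correlated best with another number. In both labels there, replicates 3 and 4 held *mt-Co3* counts and replicates 1 and 2 did not, so the numbers are not established as pairs. Values are from fits without the block unless it is named. Figures were drawn with matplotlib 3.10.9. An allele of the model and 1 gene like *Ski* are not reported here.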

Additional observations from a re-analysis of the deposited data

Results flagged for a closer look

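*Skil* stood out in 1 library of each lung group labelled Smad4 off: replicate 2 held 339 CPM on day 7, with 150 to 163 CPM in the other 3 libraries, and replicate 2 held 273 CPM on day 14, with 167 to 183 CPM in the others. The gap to the nearest library was 0.927 and 0.851 of the range, above Dixon's 95% critical value for 4 libraries. Of 24 combinations of a member and a lung group with 4 libraries, 2 were flagged in this way, and chance flags about 1 in 20. These combinations share libraries and are not independent. The same libraries held the highest *Tgif1* of their groups, 364 and 344 CPM, and the cause was not tested. The label difference of *Smurf1* was lower in the liver than in the lungs by the interaction test, at −0.69 on the log2 scale (adjusted p = 0.0357, edgeR), and was not called without the paired-end library (−0.40).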

How the results depend on the processing

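Groups of 2 to 4 libraries, and 7 to 14 counts at the least for *Bambi* and *Tgif2*, limit what could be called. Counts of called members moved as follows. At a fold over 2, the pancreas on day 14 kept 1 of 5, the average over organs and days 0 of 4, the liver-lung interaction 0 of 1, and the organ differences labelled off 0 of 2 (liver and pancreas) and 2 of 5 (lungs and pancreas) and labelled on 1 of 5 (liver and pancreas). With DESeq2 1 member was called in the liver on day 7, 1 on day 14, and 2 between liver and lungs labelled off. Without a filter the liver-lung interaction gave 0, liver and pancreas 1 labelled off and 3 labelled on. At 10 counts in every library, where *Bambi* is not tested, liver and lungs labelled off gave 0 and lungs and pancreas labelled on 1. The fit of 12 groups gave 0 in the pancreas on day 14 and 4 in the liver on day 7. With the replicate block the pancreas on day 14 gave 3 (*Ski* −0.48, adjusted p = 0.0706, and *Smurf2* −0.45, adjusted p = 0.0881, edgeR, were lost) and the liver-lung interaction 0, and beside the averaged *Ski* no other member's call changed among the label differences, their average and the interactions. The block was not run for the 6 organ differences. In the metastases without the paired-end library the average gave 1, the interaction 0, and liver and lungs 0 labelled off and 1 labelled on. With *mt-Co3* counts as a covariate *Tgif1* was also called in the average and between lungs and pancreas. Fits of libraries with or without *mt-Co3* counts used a common label difference for all organs and days in place of the average. In the 10 libraries with these counts, which include the paired-end library and none from the pancreas, it called 0 members (*Pmepa1* −0.998). In the 25 lacking them it called 4 (*Pmepa1* −0.59). Whether equal replicate numbers pair libraries was not settled in any organ and day. In the pancreas on day 14 (r = 0.0491 and 0.0726) and the lungs on day 7 (0.401 and −0.354), libraries labelled on correlated best with their own number. The 2 lung libraries labelled on of day 7 mirror each other around their mean, so the second match there follows from the first. Leaving out 1 library gave 1 to 5 members in the pancreas on day 14, 0 to 5 in the liver on day 7, 0 in the pancreas on day 7, the liver on day 14 and the lungs on both days, 3 to 6 in the average, 0 to 2, 0 and 0 to 3 in the interactions of liver and pancreas, lungs and pancreas, and liver and lungs, 0 in that of days, 0 to 4, 4 to 5 and 0 to 4 in the organ differences labelled off and 3 to 6, 2 to 3 and 0 to 2 in those labelled on. *Ski* reversed to −0.57 between liver and lungs labelled off without the paired-end library and was called at 0.46 without the other library of its group, and the cause was not tested. Of 4331 values of single members, 4172 kept their side of the threshold and 1 reversed, and 151 of those kept changed sign without being called. Fits that left out 1 library gave 3360 of the values, many without touching the groups compared. Most values were not called in the main fits and count as kept when they stay so. The share kept therefore does not measure how stable the calls are.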
